A study of Mus musculus with 24 samples.

Results

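The regions described here are stretches of accessible chromatin that both classes of cortical pyramidal neuron carried around birth and that were later listed for 1 class only. They were selected on measured values, namely the presence or absence of a peak in 12 ATAC-seq peak lists. Peaks on chromosomes 1 to 19, X and Y that overlapped by 1 bp or more were merged into 85867 union regions. A region was taken when it had a peak in at least 2 of the 4 early lists (E18.5, P1, P3 and P7) of each class, in both late lists (P21 and P48) of Cux2 neurons and in neither late list of Tle4 neurons. This gave 2806 members, or 19.7% (95% Wilson interval 19.1 to 20.4) of the 14230 regions shared early. Because peak presence defined the members, the values below are a description of them and carry no test.

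The Cux2 lists came from Cux2-CreERT2:Ai14 mice and the Tle4 lists from Tle4-2A-CreERT2:Ai14 mice, all of strain C57BL/6 and all given 4-hydroxytamoxifen before birth, so that the dam's dose switched on tdTomato in the labelled cells. Somatosensory and motor cortex was taken at 6 ages, embryonic day E18.5 and postnatal days P1 to P48, and the red cells were sorted. Cux2 callosal projection neurons (CPNs) of layer 2/3 send axons to the opposite hemisphere, whereas Tle4 corticothalamic projection neurons (CThPNs) of layer 6 send axons to the thalamus. Each class and age had 2 replicate libraries, 24 in all, each a pool of sorted cells from several animals, and each of the 12 lists was called on the 2 replicates pooled, as the peak names show, so no spread between replicates can be given. The Cux2 driver is also known to label some interneurons.

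ATAC-seq cuts open DNA with a transposase, and a peak marks a stretch where cuts pile up. Promoters, the stretches around transcription starts, are open in most cells, and many are rich in CpG dinucleotides. Distal elements include enhancers, which tend to be open only in particular cell types and stages, so a neuron's set of distal peaks turns over as it matures.

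The lists differed widely in length. On the chromosomes used they held between 6538 peaks (Tle4 at P21) and 45644 peaks (Cux2 at P48). At P21 the Cux2 list was 5.72 times as long as the Tle4 list (37427 against 6538), and at P48 it was 3.86 times as long (45644 against 11836). A peak within 1 kb of a transcription start of an interneuron marker gene was listed for 6 of 11 such genes at E18.5 (Gad2, Dlx1, Dlx2, Dlx5, Dlx6 and Lhx6), for 3 at P3 and for 1 at P1 in Cux2 neurons, and for 0 in the other 9 lists. Their part in the membership was not tested. Upper-layer genes had promoter peaks for 2 to 5 of 7 genes in the Cux2 lists and 0 to 2 in the Tle4 lists. Deep-layer genes had them for 1 to 5 of 7 genes in the Cux2 lists and 2 to 4 in the Tle4 lists. At each age upper-layer promoter peaks were more numerous in Cux2 than in Tle4 neurons, but the Cux2 list was also the longer one at each age. Deep-layer promoter peaks were more numerous in Cux2 neurons at E18.5 and P7 and in Tle4 neurons at P1, P21 and P48. How far list length sets these counts was not tested. The promoter of Tle4 itself had a peak in all 12 lists. Of 10 glial, microglial and vascular genes, Gfap had a promoter peak in 5 of the 6 Cux2 lists, P48 included, and Olig1 in the Cux2 list at P1, and none had one in a Tle4 list. The part of these peaks in the membership was not tested either. No gene of these 4 marker groups had a member at its promoter.

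Over the whole union, 24.6% of regions lay in both late Cux2 lists and in no late Tle4 list. The share among shared early regions, 19.7%, was therefore below that of all regions. With the classes exchanged, 33 shared early regions (0.232%) were kept by Tle4 only, against 0.281% of the union. Another 3688 shared early regions (25.9%) were in all 4 late lists, 2621 (18.4%) were in none, and 5082 (35.7%) had some other late pattern. Just outside the rule lay 1680 shared early regions with the same late Cux2 peaks and a Tle4 peak at P48 alone, and 385 with a Tle4 peak at P21 alone. A further 1851 had a late peak in Cux2 neurons at P48 only, and 362 at P21 only. Just outside the early thresholds, 607 regions had 1 early Tle4 list in place of 2, and 333 had 1 early Cux2 list. Inside the rule, 116 members sat on both early thresholds with exactly 2 lists of each class, and 1110 were in all 8 early lists.

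The number of members rested on the shortness of the late Tle4 lists. When every list was cut to its 6538 strongest peaks by −log10 p, 4659 regions were shared early, of which 22 (0.472%, Wilson 0.312 to 0.714) were kept by Cux2 only and 418 (8.97%, Wilson 8.18 to 9.83) by Tle4 only, so the direction turned. Over all regions of these cut lists the same late patterns were nearly level, at 6.99% for Cux2 and 6.06% for Tle4. The 418 were no firmer than the members: only 5 of them (1.20%) lacked a peak in both full late Cux2 lists. Cutting only the late Cux2 lists, each to the length of the Tle4 list of its age, left 179 regions kept by Cux2 only and 730 by Tle4 only. A common threshold of −log10 p 22.0, the highest of the 12 lists' lowest values, kept the direction, with 667 regions against 60.

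As the late Cux2 lists were lengthened, the Cux2-only count rose and the Tle4-only count fell. A Tle4-only region has late Tle4 peaks, so longer Cux2 lists cannot make it Cux2-only. With at most 10000 peaks in each late Cux2 list, 236 regions were kept by Cux2 only and 753 by Tle4 only. By 15000 peaks the 2 counts had crossed, at 480 against 404, and at 30000 peaks they stood at 1754 against 69. Regions kept by both rose from 2264 to 3540 over the same span.

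**Figure D1:**
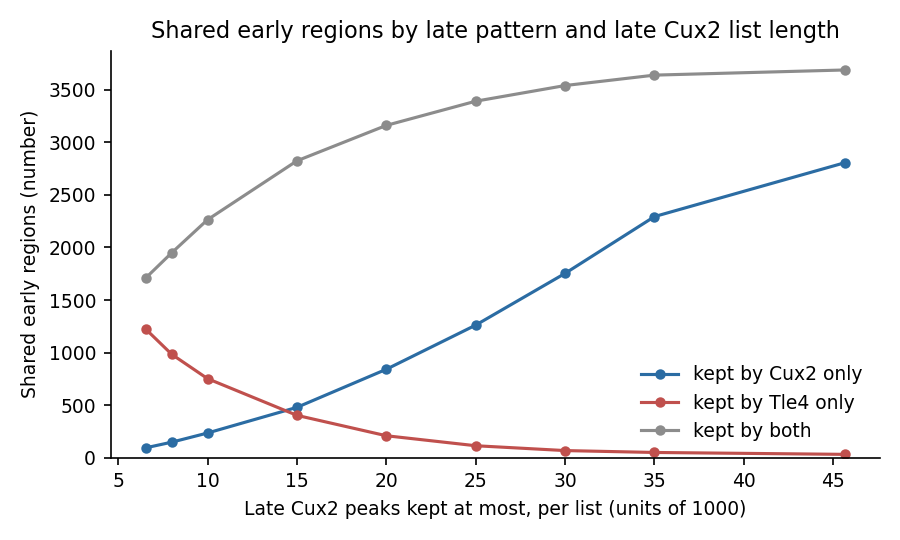
Number of shared early regions (vertical axis) kept by Cux2 only, by Tle4 only or by both, against the largest number of peaks kept in each late Cux2 list (horizontal axis, in units of 1000), with the other lists whole. The Cux2-only count rose from 95 at 6538 peaks to 2806 with full lists, while the Tle4-only count fell from 1225 to 33.

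Most members lay too far down the late Cux2 lists to have been reached in a list as short as the Tle4 one. At P21 their median rank from the top by −log10 p was 21266, or 56.8% of the way down, and 268 of them (9.55%) ranked within the first 6538. At P48 the median rank was 20234 (44.3% of the way down), and 622 (22.2%) ranked within the first 11836. By peak strength rather than by rank, 1154 members (41.1%) reached the lowest −log10 p of the Tle4 list at P21, 21.1, and 2176 (77.5%) reached the lowest at P48, 19.8. Both conditions on strength were met by 1021 members (36.4%), and both on rank by 179 (6.38%). No late Tle4 peak lay within 1 kb of 2776 members (98.9%). Whether reads lie at the members in the late Tle4 libraries cannot be seen from lists of called peaks. In sorted pools, fewer cells with an open region and a less open region in every cell cannot be told apart.

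With all lists at equal length, 14 of the 22 regions that met the rule overlapped a member, and 14 of the 2806 members (0.499%) were found in this way. The sequences of 7 of them are printed because these members met the rule at either list length, and because they show the base composition and the motifs that recur among the strongest distal members. Each is 300 bases of the plus strand of mm9 (NCBIM37), written 5′ to 3′ and centred on the summit of the Cux2 peak at P48. Capitals mark matches, on either strand, to any of the 16 motifs named further on; in the first sequence the run CCAGATGGC holds an E-box and a CTCF core match that overlap.
chr3:131932626-131932925 (intergenic, nearest annotated start Dkk2): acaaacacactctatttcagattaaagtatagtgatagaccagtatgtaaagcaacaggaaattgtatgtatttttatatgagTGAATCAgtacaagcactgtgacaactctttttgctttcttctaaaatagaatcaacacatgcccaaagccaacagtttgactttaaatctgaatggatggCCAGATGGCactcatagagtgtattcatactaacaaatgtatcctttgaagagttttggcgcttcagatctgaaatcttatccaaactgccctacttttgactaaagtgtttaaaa
chr5:90060704-90061003 (intergenic): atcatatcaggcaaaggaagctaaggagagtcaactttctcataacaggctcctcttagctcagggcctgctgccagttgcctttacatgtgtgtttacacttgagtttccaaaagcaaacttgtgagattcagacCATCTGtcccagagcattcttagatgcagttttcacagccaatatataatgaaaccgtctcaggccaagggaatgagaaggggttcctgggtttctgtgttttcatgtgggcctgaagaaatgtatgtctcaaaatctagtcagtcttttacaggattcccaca
chr12:118051452-118051751 (intron of Ptprn2): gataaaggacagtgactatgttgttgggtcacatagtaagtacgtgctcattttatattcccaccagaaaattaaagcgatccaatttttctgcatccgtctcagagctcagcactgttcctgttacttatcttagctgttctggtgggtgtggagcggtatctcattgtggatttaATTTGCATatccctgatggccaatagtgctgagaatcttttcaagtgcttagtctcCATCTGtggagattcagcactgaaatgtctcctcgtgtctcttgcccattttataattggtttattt
chr1:35992180-35992479 (intergenic, nearest annotated start Hs6st1): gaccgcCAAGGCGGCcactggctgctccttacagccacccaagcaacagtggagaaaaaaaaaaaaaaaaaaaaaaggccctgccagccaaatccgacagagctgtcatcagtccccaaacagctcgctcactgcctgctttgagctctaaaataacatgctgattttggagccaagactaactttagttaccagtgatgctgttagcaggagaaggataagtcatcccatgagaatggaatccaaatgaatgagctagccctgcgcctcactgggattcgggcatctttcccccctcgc
chr13:82647221-82647520 (intergenic): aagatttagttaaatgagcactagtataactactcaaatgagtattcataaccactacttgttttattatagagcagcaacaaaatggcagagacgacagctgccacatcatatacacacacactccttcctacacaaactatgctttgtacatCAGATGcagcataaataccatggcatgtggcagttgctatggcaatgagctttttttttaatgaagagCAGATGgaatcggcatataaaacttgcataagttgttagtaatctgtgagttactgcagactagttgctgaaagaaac
chr10:104472118-104472417 (intergenic): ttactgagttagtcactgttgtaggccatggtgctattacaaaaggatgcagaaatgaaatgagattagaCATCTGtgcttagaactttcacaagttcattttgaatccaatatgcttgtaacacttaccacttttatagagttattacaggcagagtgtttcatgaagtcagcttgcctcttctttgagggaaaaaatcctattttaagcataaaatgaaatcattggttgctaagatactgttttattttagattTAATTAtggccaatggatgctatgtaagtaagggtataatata
chr17:93997564-93997863 (intergenic): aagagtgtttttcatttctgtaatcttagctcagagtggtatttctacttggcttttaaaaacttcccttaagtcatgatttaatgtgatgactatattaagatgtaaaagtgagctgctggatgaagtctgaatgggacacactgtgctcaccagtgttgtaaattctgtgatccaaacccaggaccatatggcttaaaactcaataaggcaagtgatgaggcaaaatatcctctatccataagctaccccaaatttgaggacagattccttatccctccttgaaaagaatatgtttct

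The first, chr3:131932256-131933221, lay 184000 bp from the nearest annotated start, that of Dkk2, which encodes a secreted modulator of Wnt signalling. Its fold enrichment over background in Cux2 neurons was 18.8 at E18.5, 16.6 at P1, 14.5 at P3, 14.4 at P7, 18.3 at P21 and 17.0 at P48. In Tle4 neurons it was 15.1, 14.7, 12.5 and 12.0 at the 4 early ages, and no peak was listed at P21 or P48. It ranked 813 of 37427 in the Cux2 list at P21 and 1587 of 45644 at P48, and its Tle4 ranks before that lay between 2358 and 3858. In the early lists the classes were thus within a few fold-enrichment units of each other, with Cux2 higher at each of the 4 ages.

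The intergenic chr5:90060355-90061317 stood at 17.5, 10.6, 12.8, 14.2, 13.9 and 17.7 in Cux2 neurons from E18.5 to P48, and at 18.1, 16.2, 13.9 and 12.8 in Tle4 neurons at the early ages. Its fold enrichment was higher in Tle4 neurons at E18.5, P1 and P3 and higher in Cux2 neurons at P7.

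Another, chr12:118051039-118052122, was within an intron of Ptprn2, a gene for a receptor-type phosphatase-like protein of dense-core vesicles. Its fold enrichment in Tle4 neurons was 14.4, 16.4, 11.8 and then 7.30 at P7, whereas in Cux2 neurons it was 14.9, 13.9, 13.3, 11.5, 15.8 and 12.7. The intron member of Dst, chr1:34003400-34004390, had Tle4 values of 9.02, 10.5, 7.0 and 5.59 against Cux2 values of 15.0, 11.7, 11.9, 9.08, 12.7 and 11.5. Dst encodes dystonin, a linker of the cytoskeleton. In both of these the lowest listed Tle4 value was the last one before the peak was no longer listed, at P7. The lowest Cux2 value was at P7 too, 11.5 and 9.08.

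An exon of Scn2a1, the gene of the voltage-gated sodium channel Nav1.2, was overlapped by chr2:65528335-65529682. Its values were 14.1, 10.7, 9.92, 8.10, 12.1 and 12.0 in Cux2 neurons and 12.3, 10.7, 7.60 and 7.05 in Tle4 neurons, so that in both classes they fell from E18.5 to P7 and in Cux2 neurons they were higher again at P21 and P48. The intergenic chr10:104471635-104472778 ran the other way early, at 7.07, 9.36, 13.0, 12.0, 14.2 and 12.8 in Cux2 neurons and 10.5, 14.6, 13.3 and 14.1 in Tle4 neurons. Also among the members found at equal list length were the intergenic chr1:35991813-35992951, chr13:82646846-82648195, chr17:93997078-93998406 and chr3:34726968-34728613, whose late Cux2 fold enrichment lay between 12.2 and 14.5. Their GC content was between 31.6% and 46.7%.

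The only promoter among the 14 was that of Fabp5, which encodes a fatty acid binding protein (chr3:10012129-10014084). Its fold enrichment was 9.18, 9.08, 8.28, 6.20, 8.84 and 8.27 in Cux2 neurons and 9.31, 9.34, 7.62 and 6.88 in Tle4 neurons, and neither class was the higher at every shared age.

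Across all 2806 members the early lists of the 2 classes held them about equally, except at P7. The Cux2 lists held 2492 at E18.5, 2312 at P1, 2661 at P3 and 2602 at P7, and the Tle4 lists held 2249, 2442, 2686 and 1858. The smallest of these, the Tle4 list at P7, was also the shortest of the 8 early lists, with 15186 peaks. The median fold enrichment of members in Cux2 neurons was 10.9 at E18.5, 11.1 at P1, 10.3 at P3, 9.28 at P7, 9.03 at P21 and 8.99 at P48. In Tle4 neurons it was 10.5, 10.6, 9.52 and 9.74 at the early ages. The interquartile ranges of the classes overlapped at every early age, the only ages at which members have Tle4 values.

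**Figure D2:**
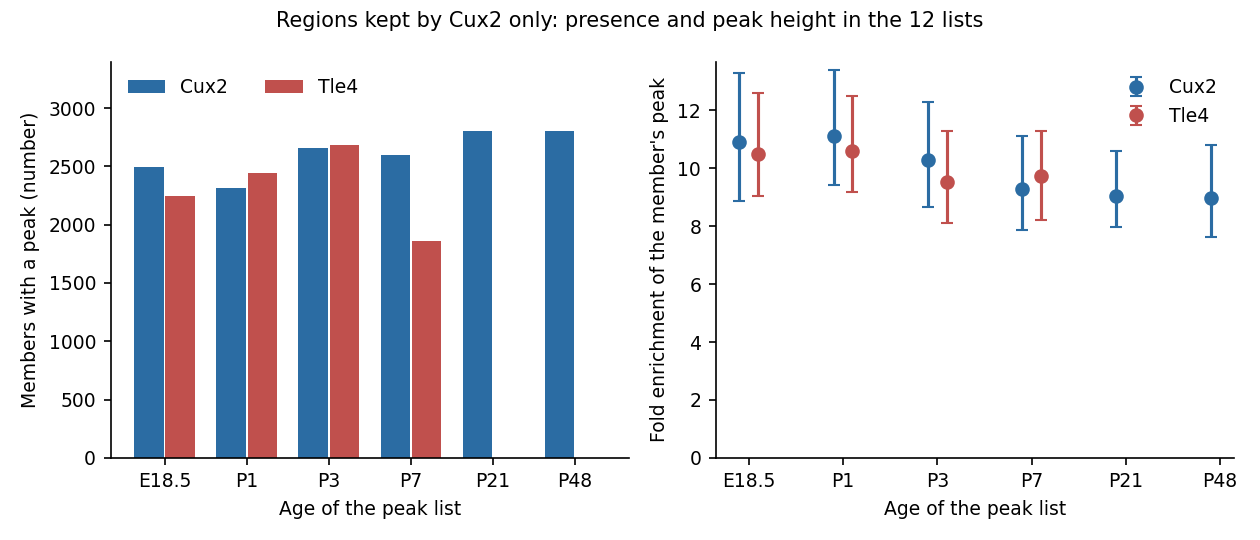
Left, number of the 2806 members with a peak in each list by age, for Cux2 (blue) and Tle4 (red). Right, fold enrichment of the strongest peak of each member, as the median (point) and the interquartile range (bars) over the members held; the Cux2 medians lie between 8.99 and 11.1, and no Tle4 value exists at P21 and P48 because the rule requires it.

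Within the same member and age, the early peak was higher in Cux2 than in Tle4 neurons in 55.8% of the 2088 members held by both lists at E18.5, 61.1% of 2067 at P1, 66.1% of 2546 at P3 and 51.1% of 1786 at P7. The median log2 ratio was small, between 0.010 and 0.12. Regions later kept by both classes had shares of 49.4%, 70.6%, 79.4% and 49.6% at the same ages, so a Cux2 excess at P1 and P3 was not particular to the members. For regions kept by neither class the shares were 51.9%, 53.7%, 56.1% and 35.7%. Of the 2492 members with a Cux2 peak at E18.5, 28.5% had a higher fold enrichment at P21 and 28.1% at P48. Of the 2602 with a Cux2 peak at P7 the shares were 48.5% and 45.8%.

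In the early lists the members were peaks of middling strength. Among the 6538 strongest peaks of each early Cux2 list stood 28.2% to 29.5% of the members, and in the early Tle4 lists 23.4% to 27.0%. In the late Cux2 lists the share was 9.55% at P21 and 7.88% at P48. The shared early regions were ranked by their mean percentile of −log10 p in the early Tle4 lists and split into 10 equal bins of 1423 regions. The share in both late Tle4 lists rose from 3.65% in the weakest bin to 89.9% in the strongest. The share in both late Cux2 lists rose over a narrower span, from 33.8% to 97.0%. Members made up 21.4% to 26.6% of each of the 7 weakest bins, 17.8% of bin 8, 10.0% of bin 9 and 2.67% of the strongest. By early Tle4 strength their share was thus lower only among the shared regions of highest strength. There the rule also left out most regions, because they had late Tle4 peaks. With bins by early Cux2 strength, members made up 19.3% of the weakest bin, 26.4% of bin 5, 19.1% of bin 8 and 2.46% of the strongest.

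**Figure D3:**
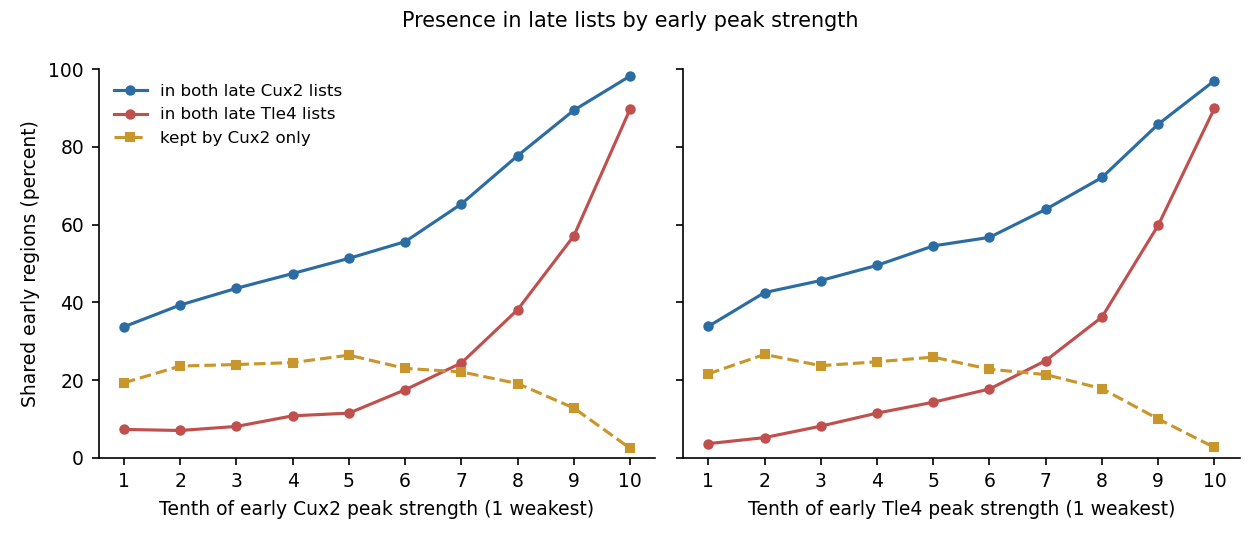
Percent of shared early regions (vertical axis) present in both late Cux2 lists (blue), in both late Tle4 lists (red) or kept by Cux2 only (gold, dashed). The regions were split into 10 bins of 1423 by early peak strength, the mean percentile of −log10 p, in Cux2 neurons (left) and Tle4 neurons (right). In the strongest bin by early Tle4 strength 97.0% were in both late Cux2 lists, 89.9% in both late Tle4 lists and 2.67% were members.

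The members fell into 1180 promoters, meaning within 1 kb of an annotated transcription start (42.1%, Wilson 40.2 to 43.9), 99 exonic (3.53%), 625 intronic (22.3%) and 902 intergenic regions (32.1%). Over the union 16.6% were promoters, over regions kept by both classes 74.4%, and over regions kept by neither 33.4%. Their median width was 1055 bp. Promoter members had a median GC content of 57.1% and a CpG observed/expected ratio of 0.727, and distal members 43.7% and 0.234. The promoter share was 25.0% of the 116 members in 4 early lists, 18.7% of the 278 in 5, 29.3% of the 546 in 6, 42.3% of the 756 in 7 and 55.8% of the 1110 in all 8.

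The promoter share depended on where the late lists ended. Among the 1785 members below the lowest late Tle4 −log10 p in at least 1 late Cux2 list it was 50.0% (Wilson 47.7 to 52.3), among the 1021 at or above it in both 28.2% (25.5 to 31.0), and among the 179 within the Tle4 list length 7.82% (4.72 to 12.7). Over all shared early regions within the Tle4 list length in both late Cux2 lists, it was 67.2%. The members ranked highest in the late Cux2 lists were thus mostly distal, although most shared early regions of that strength were promoters. The rule bears on this difference, because it leaves out regions with a late Tle4 peak, and 74.4% of the regions kept by both classes were promoters. How much of the difference comes from the rule was not tested.

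Promoter and distal members also differed in the lists in which they ranked high. Promoter members were among the 6538 strongest Cux2 peaks in 43.6% of cases at E18.5, 47.4% at P1, 43.7% at P3 and 36.9% at P7, but in 1.78% at P21 and 5.25% at P48. Distal members were among them in 17.1%, 16.6%, 18.1% and 23.8% of cases early, and in 15.2% and 9.78% late. The median fold enrichment of promoter members in Cux2 neurons went from 11.6 at E18.5 to 8.62 at P21 and 8.71 at P48, and that of distal members from 10.4 to 9.52 and 9.20. The order of the 2 kinds was thus exchanged between the early and the late Cux2 lists. The rule bears on the late values, because it leaves out regions with a late Tle4 peak. Of the shared early regions within the Tle4 list length in both late Cux2 lists, 67.2% were promoters. How much of the exchange comes from the rule was not tested.

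**Figure D4:**
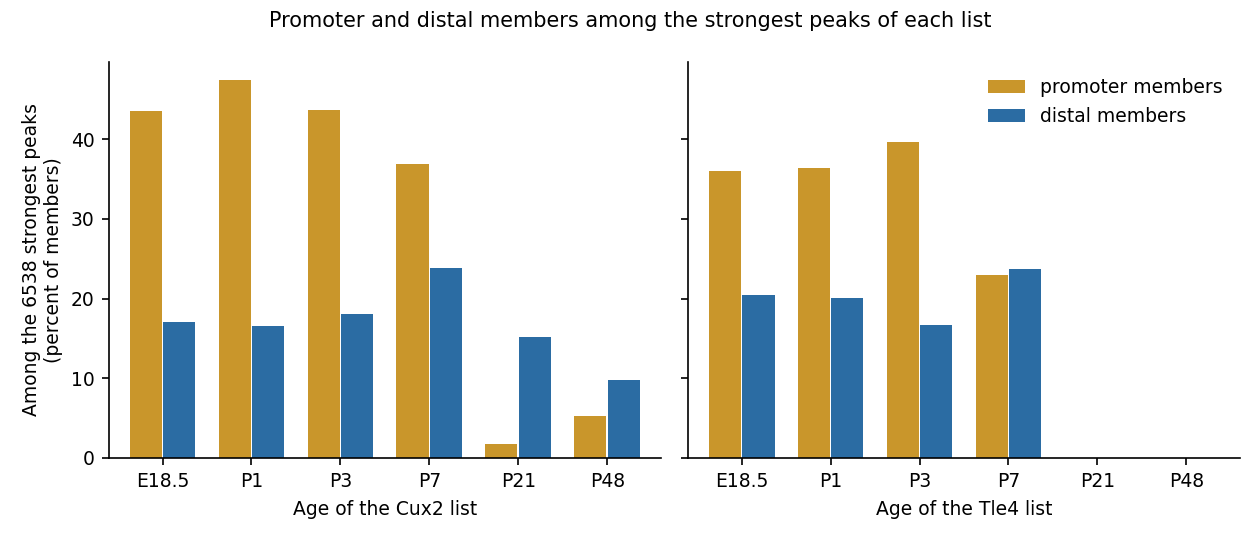
Percent of the 1180 promoter members (gold) and the 1626 distal members (blue) found among the 6538 strongest peaks by −log10 p of each Cux2 list (left) and each Tle4 list (right), by age. Promoter members stood between 36.9% and 47.4% in the early Cux2 lists and at 1.78% and 5.25% in the late ones; late Tle4 values are 0 by the rule.

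Short motifs were counted in 300 bp around the summit of the strongest peak of each region, on both strands, as a description of letters and not of bound factors. Among member promoters the ETS letters CCGGAAG stood in 24.7%, against 14.5% of all union promoters, 16.6% of promoters kept by both and 162 of 875 of those kept by neither. The SP/KLF letters GGGCGGG stood in 42.0% of member promoters, against 38.5%, 53.5% and 54.1%. NRF1 (GCGCATGCG) was at 5.34% against 3.00%, 2.44% and 6.97%, and the cyclic AMP response element CRE (TGACGTCA) at 5.17% against 3.42%, 3.93% and 5.03%. The ETS share of member promoters was above those of the other 3 sets named, and their SP/KLF share lay above that of the union and below those of regions kept by both or by neither, with no test of these differences.

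Among distal members the E-box CAGATG, a sequence bound by neurogenic bHLH factors such as NeuroD, stood in 35.8%, against 34.5% of all distal union regions, 27.0% of those kept by both and 29.2% of those kept by neither. The AP-1 letters TGANTCA, bound by Fos and Jun dimers, stood in 10.1% against 18.3%, 15.2% and 6.82%. The CTCF core CNAGNNGGC, some of whose matches overlap CAGATG, stood in 20.7% against 15.9%, 23.8% and 17.1%. The RFX half-site GTTGCCA was at 7.75% against 5.34% of the union and 7.96% of those kept by neither, and in 104 of 943 of those kept by both. The POU octamer ATGCAAAT was at 5.47% against 4.17%, 3.71% and 4.47%. The NFI half-site TTGGCA (23.1% against 22.7%) and the homeodomain letters TAATTA (7.50% against 8.59%) were near the union. MEF2 (CTATTTATA), SOX (AACAATG), YY1 (AAGATGGCG), EGR (GCGTGGGC) and T-box (AGGTGTG) letters each stood in under 3% of distal members.

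The E-box share grew with the late Cux2 rank of the member. It was 32.1% of the 893 distal members below the late Tle4 floor and 40.2% of the 733 at or above it in both lists. It was 50.9% of the 165 within the Tle4 list length and 9 of 13 (69.2%) among those found at equal length. Of the 7 sequences printed above, 5 hold the E-box, but they are centred on the Cux2 summit at P48 and can differ from the windows counted here. Over all distal union regions within the Tle4 list length in both late Cux2 lists the share was 37.3%, and over the distal shared early ones 36.9%. AP-1 letters went from 7.50% to 13.4% and 15.8% (26 of 165) over the first 3 of these groups of members. Within the Tle4 list length in both late Cux2 lists, 33.2% of the distal union regions held them. Of the distal shared early regions of that late rank, 138 of 747 did. The members' 15.8% thus lay nearer to the share of shared early regions than to that of the union.

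**Figure D5:**
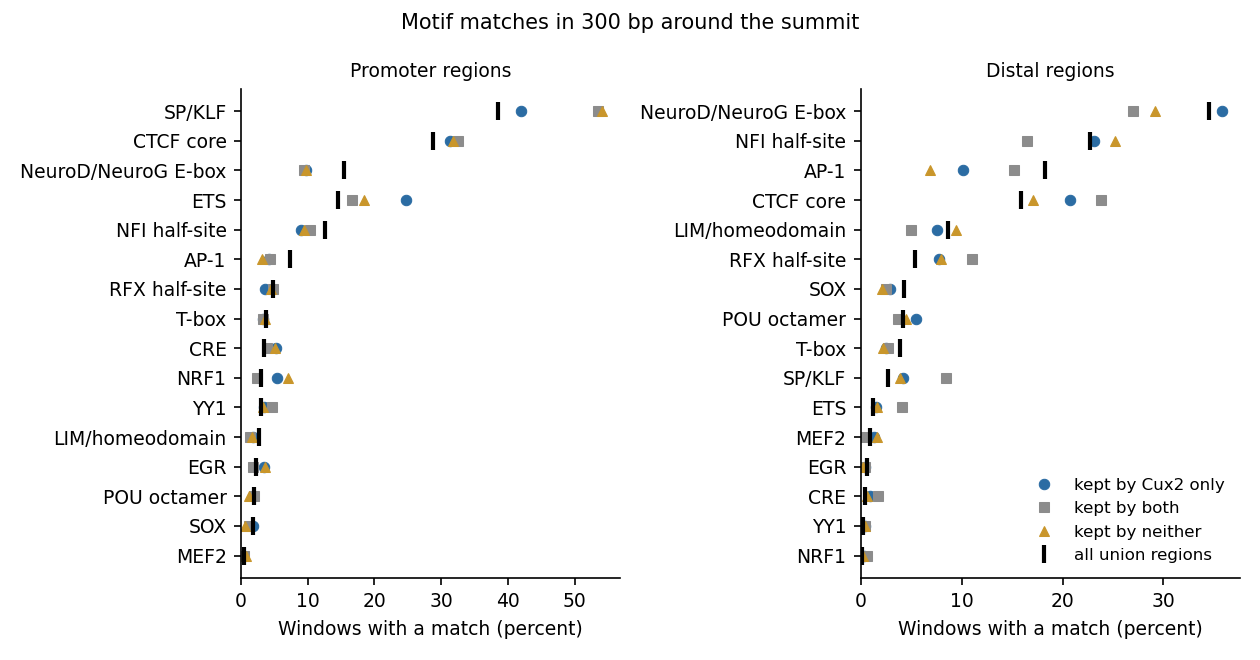
Percent of 300 bp windows with a match to each of 16 motifs, for promoter regions (left) and distal regions (right), among members (blue circles), regions kept by both classes (grey squares), regions kept by neither (gold triangles) and all union regions (black bars). Member promoters stand highest of the 4 groups at ETS (24.7%), and distal members stand highest of the 4 groups at the E-box (35.8%) and below the union at AP-1 (10.1%).

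Of 22225 protein-coding genes, 6843 (30.8%) had a member within 100 kb of a transcription start and 1255 (5.65%) had a member at a promoter, and members made up 4.31% of all regions near genes. Genes with many starts or many regions nearby have more chances to meet a member, so the share of nearby regions is given beside each list. A member within 100 kb of a gene can also lie at the promoter of another gene. The gene with the most members was Dlg2, which encodes the postsynaptic scaffold PSD-93, with 7 members among 70 union regions. Of these, 5 lay within the gene and 1 at a promoter of it, and 1 was the promoter of the neighbouring Crebzf at chr7:97590628-97592250. The intron member chr7:99412971-99414106 had fold enrichments of 12.7, 9.52 and 11.3 at E18.5, P1 and P3 and of 14.9 and 10.6 at P21 and P48 in Cux2 neurons, with no peak at P7, and of 10.5, 10.4, 8.33 and 8.07 in Tle4 neurons. Usp9x, a deubiquitinase gene on the X chromosome, had 5 members among 10 regions, and its own promoter, chrX:12647463-12648824, went from 9.14 at E18.5 to 6.45 and 6.11 at P21 and P48 in Cux2 neurons.

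The other genes at the top of this order shared their members. Arhgap9, Gli1 (a transcription factor of Hedgehog signalling) and Inhbe, all on chromosome 10, had the same 5 members among 13 regions, of which 4 were at promoters of R3hdm2, Dctn2 and Ddit3. AI429214 on chromosome 8 had 5 of 12, 2 of them in introns of Dlc1. The zinc finger genes Zfp397, Zfp191, Zfp35 and Zscan30 on chromosome 18 shared 5 members, at the promoters of Zfp35 and Zfp191 and between the genes, and Zfp397 had a 6th in Mapre2. None of the shared early regions within 100 kb of the 4 zinc finger genes was kept by both classes.

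In the list of upper-layer and callosal genes 10 of 18 (55.6%) had a member within 100 kb, and members were 4.82% of the regions near them. In the list of deep-layer and corticofugal genes it was 3 of 18 (16.7%) and 1.42%. Over all genes these shares were 30.8% and 4.31%. A high gene share was not particular to upper-layer genes. It was 57.9%, 54.3% and 55.0% in the immature neuron, synaptic and activity-regulated lists below. Pou3f1, a POU-domain transcription factor, had 2 members; chr4:124271878-124272661 stood at 10.4, 10.2 and 7.54 in Cux2 neurons at E18.5 to P3 and at 9.55 and 9.87 at P21 and P48, against 8.51, 8.91 and 8.0 in Tle4 neurons at E18.5 to P3, and neither class had a peak at P7. Limch1, which encodes an actin-associated protein, had 2, of which chr5:67121934-67122734 was among the highest, at 20.1, 15.5, 14.6, 10.8, 12.8 and 13.9 in Cux2 and 16.8, 14.4, 14.7 and 9.93 in Tle4 neurons. Tle3, a gene of a transcriptional corepressor, had 1 of 6 regions as a member. The deep-layer genes with a member were Ldb2, at its promoter, Tshz2 and Foxp1, whose member lay in an intron of Eif4e3.

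The immature neuron programme had a member near 11 of 19 matched genes (57.9%, against 30.8% over all genes), 3 of them at promoters. Members were 5.46% of nearby regions, against 4.31% over all genes. Members near its SoxC genes took 2 opposite courses in Cux2 neurons, and the link of these regions to the genes was not tested. The promoter of Sox4, chr13:29045061-29045945, fell from 9.94 at E18.5, 11.2 at P1, 9.43 at P3 and 8.34 at P7 to 5.53 at P21 and 4.50 at P48 in Cux2 neurons, and was last listed in Tle4 neurons at 7.05 at P7. Its rank was 37372 of 45644 at P48, which was far below the 11836 peaks of the Tle4 list of that age. Another member, chr13:29115101-29116022, lay 69519 bp from the start of Sox4 and overlapped an exon of A330102I10Rik, whose start was 6524 bp away. In Cux2 neurons it was absent at E18.5 and P1 and then stood at 9.77, 11.6, 17.5 and 16.7. In Tle4 neurons it stood at 12.4, 8.37 and 9.45 at P1, P3 and P7. The member near Sox11, chr12:28102206-28103250, was similar, at 7.72 at E18.5 and 10.6 at P7, and then 19.8 at P21 and 18 at P48, against 10.5, 13.7, 11.7 and 10.6 in Tle4 neurons at the 4 early ages. Marcks had 2 members and Meis2 had 1, in its own intron, at 11.4 and 13.6 in the late Cux2 lists.

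Axon guidance genes had a member near 10 of 29 (34.5%, against 30.8% over all genes), and 4.36% of nearby regions were members. Sema3a, a secreted repellent, had 3 members of 15 regions: its promoter chr5:13399156-13400768 stood at 4.91 and 5.02 in the late Cux2 lists, whereas the intronic chr5:13354747-13355396 went from 8.14 at P3 and 11 at P7 to 14.5 and 13.6. Slit1 had 3 members, Plxna2 had 2, and Epha5 had 1 at its promoter. Synaptic genes had a member near 19 of 35 (54.3%), 5 of them at promoters. Members were 4.11% of nearby regions, against 4.31% over all genes. Among them Nlgn3 and Shank1 had 2 members each and Gria4 had 1 at its promoter. The intronic member of Grm5, which encodes a metabotropic glutamate receptor (chr7:94935927-94936911), stood at 10.7, 8.65, 10.8, 12.1, 13.0 and 14.8 in Cux2 and at 8.99, 12.7 and 11.5 at E18.5 to P3 in Tle4 neurons.

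Activity-regulated genes had a member near 11 of 20 (55.0%, against 30.8% over all genes), 4 of them at promoters. Their share of nearby regions, 6.02%, was the highest among the 9 lists, against 4.31% over all genes. Only shared early regions can be members, and the share of members among the shared early regions near these genes was not compared. Egr1 and Junb, immediate early transcription factors, had 3 members each. The promoter of Junb, chr8:87502373-87503093, stood at 6.98, 8.33, 7.88, 6.31, 6.87 and 4.86 in Cux2 and 7.19, 8.19, 5.99 and 6.06 in Tle4 neurons. Nr4a1 had 2 members and Fosl2 had 1, at its promoter. Voltage-gated channel genes had a member near 9 of 21 (42.9%), with 3.88% of nearby regions. Of these the calcium channel gene Cacna1a had 3 members, of which 2 were at the promoters of neighbouring genes. The potassium channel genes Kcnq3, Kcnd3 and Kcnh1 had 2 each, those near Kcnh1 lying at promoters of Gm10516 and Traf5. Interneuron genes had a member near 2 of 16 (12.5%, with 2.56% of nearby regions), Sst and Reln, those near Sst lying at Bcl6. Glial, microglial and vascular genes had a member near 6 of 20 (30.0%, with 2.74% of nearby regions). Among them were Pecam1, Aif1 and Mog, whose members lay at the promoters of Ddx5, Nfkbil1 and Znrd1. No gene of these last 2 lists had a member at its own promoter. One more of the 14 members found at equal list length, chr18:67840987-67841836, overlapped an exon of Ptpn2, a phosphatase gene, at 16.4, 13.0, 13.1, 11.6, 14.3 and 11.5 in Cux2 and 14.6, 16.7, 13.7 and 14.8 in Tle4 neurons.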

How the data were processed

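Chromatin accessibility was measured by ATAC-seq in 24 libraries of sorted mouse cortical neurons, 2 per class and age. As the methods describe, the authors used Bowtie2 to map reads to mm9 (NCBI37), removed duplicates with Picard 2.7.1, and called peaks for each class and age with MACS2 2.1.1, keeping peaks at an irreproducible discovery rate of at most 0.1; the peak names in the files show calling on pooled replicates. The deposited peak lists give for each peak a fold enrichment over background (a ratio) and a −log10 p-value; the deposited −log10 q-values and scores were read with each list but not analysed. The lists hold no read counts, so the depth per sample is unknown and intervals on shares cover counting error only.

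Here 292934 of 292994 peaks, those on chromosomes 1 to 19, X and Y, were merged with Python 3.11.15 (pandas 2.3.3, numpy 2.4.6, scipy 1.17.1 and pysam 0.24.0) and the rule applied. A region took its strongest peak per list. Percentiles rank fold enrichment within a list, except in the bins of early strength, where they rank −log10 p. Ranks from the top rank −log10 p. Positions and sequences came from NCBIM37 with the GENCODE vM1 annotation. The motif windows were 300 bp. The merging, the rule and the annotation were tested on simulated lists. Named members were the 12 with the highest mean late Cux2 percentile among those found at equal list length, named genes the 10 with the most members within 100 kb and up to 4 per gene list. A few items that these rules name are not reported here. The members and lists were chosen with earlier results of these data known. Alternatives were equal list lengths, a common threshold, other merging, other early-list numbers and each list left out.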

Additional observations from a re-analysis of the deposited data

How the results depend on the processing

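Lists of called peaks at different lengths limit every count here, and replicates were pooled before calling, so no replicate could be left out; lists were left out in their place. No paired analysis was possible because each list pools its 2 replicates. The main counts were 2806 regions kept by Cux2 only and 33 by Tle4 only (log2 ratio 6.41). The direction reversed with all lists at equal length by −log10 p (22 and 418, log2 ratio −4.25) or by fold enrichment (39 and 402, −3.37), and with each late Cux2 list at the Tle4 length of its age (179 and 730, −2.03). It also reversed with the late Cux2 lists at most 10000 peaks long (236 and 753, −1.67), but not at 20000 (842 and 210, 2.00) or 30000 (1754 and 69, 4.67), 3 lengths chosen after seeing the data, as were the log2 ratio and the use of P7 as the only early age. A common −log10 p gave 667 and 60 (3.47), and all 4 early lists gave 1110 and 15. Leaving out each list in turn gave 2352 to 4657 regions kept by Cux2 only, 25 to 147 by Tle4 only and log2 ratios of 4.44 to 6.68. Without the Tle4 list at P48 the Cux2-only count was 4484, and without the Cux2 list at P21 it was 4657. The Tle4-only count was 62 without either of these, 146 without the Cux2 list at P48 and 147 without the Tle4 list at P21. Counts under the remaining alternatives, which changed the merging, the summit window, the distance to a late peak or the early lists to at least 3 or to P7 (2134 and 34), stayed within 1.5 times the main ones. The promoter share of members ranged from 7.82% to 55.8% and the median GC content from 40.8% to 52.3% over the alternatives. With all lists at equal length the promoter share was 22.7% by −log10 p and 51.3% by fold enrichment; the cause was not tested.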

Other observations

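The X chromosome held 105 of its 380 shared early regions as members, which was 3.74% of the members against 2.51% of the union regions. On chromosome 2 it was 161 of 1014, or 5.74% of the members against 7.52% of the union, and on chromosome 3 it was 207 of 874, or 7.38% against 6.25%. The Y chromosome, with 6 union regions, held 1 member. The other autosomes held between 59 and 223 members each. These values are a description of pooled lists, with no test.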
